A study of Mus musculus with 22 samples.

Results

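Striated muscle miRNAs were followed across the mammary glands of mice on 4 diets. The set is mmu-miR-1, mmu-miR-133a, mmu-miR-133b, mmu-miR-206 and mmu-miR-499 (written without the species prefix below), which were found by probe name and make up 5 of the 599 endogenous probes of a NanoString nCounter mouse miRNA panel, an assay that counts each miRNA through a fluorescent barcode without amplification. All mice were female C57BL/6, entered the study at 4 to 5 weeks of age and ate 1 of 4 diets for 3 weeks: 10% flaxseed, 3.67% flaxseed oil (called oil below), 0.15% SDG (the lignan secoisolariciresinol diglucoside, present in flaxseed), or the basal AIN-93G diet that served as control. Total RNA of the 4th left gland of each mouse was run in 1 lane, giving 6 flaxseed, 5 oil, 6 SDG and 5 basal lanes. The submitters had randomized 6 mice to each diet and left out oil 5 and basal 5 because too few probes were above background.

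miRNAs are short RNAs that guide repression of messenger RNAs, mostly through bases 2 to 8, the seed. miR-1, miR-133a, miR-133b and miR-206 are enriched in skeletal muscle or heart, where they are induced as muscle precursors differentiate, and miR-206 is largely confined to skeletal muscle. miR-499 is encoded within a slow myosin gene, Myh7b, and is related to miR-208a and miR-208b, which are also encoded within myosin genes, miR-208a being largely confined to heart. The mammary gland itself is epithelium within a fat pad that lies beneath the skin, close to skeletal muscle of the body wall.

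The mature sequences below are those of RefSeq (build GRCm38.p6), shown because shared and different seeds decide which probes are related. The panel uses older names without an arm, so the arm given here was assigned from common usage. Capitals mark the seed.

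miR-206-3p: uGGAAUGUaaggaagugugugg
miR-133b-3p: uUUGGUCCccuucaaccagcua
miR-499-5p: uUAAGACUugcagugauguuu
miR-208a-3p: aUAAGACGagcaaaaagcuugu
miR-208b-3p: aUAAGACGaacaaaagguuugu

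miR-206-3p lies at chr1:20679055-20679076 and miR-133b-3p at chr1:20682834-20682855, both on the plus strand, and 3686 bases separate their hairpins. Despite that shared locus their seeds have 1 of 7 bases in common. miR-499-5p lies at chr2:155622893-155622913 on the plus strand. Its seed has 6 of 7 bases in common with that of miR-208a-3p (chr14:54949072-54949093, minus strand) and of miR-208b-3p (chr14:54975710-54975731, minus strand). miR-208a-3p and miR-208b-3p have the same seed and are identical at 19 of 22 positions.

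The lanes held 260551 to 762146 endogenous counts. The background threshold of a lane, the mean plus 2 SD of its 8 negative control probes, ranged from 17.5 to 66.8 counts. In basal 1, flaxseed 3 and SDG 5, miR-720 made up over 40% of the counts, against 2.37% to 8.61% in the other 19 lanes, and the main results are also given without those lanes. A second deposited table of log2 values, prepared by the authors, could be set against the lanes over 238 probes. The columns of the 16 flaxseed, oil and basal samples correlated best with their own lanes. The columns of all 6 SDG samples correlated best with a lane of another SDG number and none with a lane of another diet, so SDG replicate numbers below are those of the lane files, and diet comparisons do not depend on them. Mammary epithelial markers were present: 10 of 10 listed miRNAs, among them the miR-200 family and miR-205, were above background in at least 1 lane. Their summed level was 3177 to 28276 CPM (counts scaled to a common total) in flaxseed, 8831 to 28150 CPM in oil, 11372 to 19724 CPM in SDG and 5940 to 23415 CPM in basal lanes.

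miR-1, with the highest counts of the 5, was above background in 22 of 22 lanes and spanned 88 to 96794 counts. Flaxseed lanes had a lowest count of 1898, a median of 7782 and a highest of 23594. Oil lanes had 1750, 349, 168, 166 and 877 counts in replicates 1, 2, 3, 4 and 6. All flaxseed counts were therefore above all oil counts, while SDG and basal lanes covered both ranges. SDG lanes had a lowest count of 88, a median of 218.5 and a highest of 24023. Basal lanes had 763, 123, 33870, 96794 and 843 counts in replicates 1, 2, 3, 4 and 6. SDG 5, basal 3 and basal 4 stood far above the other lanes of their diets, and no gap between neighbouring lanes was wider than 1.63 of the 9.59 log2 units that the 22 lanes spanned.

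On the log2 CPM scale, in which counts are scaled to a common library size by trimmed means with 1 count added, miR-1 averaged 14.03 ± 1.33 in flaxseed, 9.44 ± 1.76 in oil, 10.45 ± 3.13 in SDG and 12.86 ± 3.97 in basal lanes (SD, n = 6, 5, 6 and 5). The order by mean level was thus flaxseed, basal, SDG and oil. Neighbours in this order were not separated by exact two-sided permutation tests of the lanes. The unadjusted p of these tests was 0.506 for flaxseed against basal, 0.271 for SDG against basal and 0.565 for oil against SDG. In whole gland RNA, fewer cells of a type and less RNA per cell cannot be told apart.

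miR-133a, which is transcribed with miR-1 from shared loci, was above background in 15 of 22 lanes: 6 of 6 flaxseed, 2 of 5 oil, 3 of 6 SDG and 4 of 5 basal lanes. Flaxseed lanes had a lowest count of 189, a median of 483.5 and a highest of 1442. Oil lanes had 166, 35, 20, 24 and 93 counts in replicates 1, 2, 3, 4 and 6, again all below the flaxseed lanes. SDG lanes had a lowest count of 18, a median of 29 and a highest of 1173. Basal lanes had 423, 16, 2019, 5672 and 68 counts in replicates 1, 2, 3, 4 and 6. The highest lanes were again basal 4 and basal 3, with SDG 5 alone among SDG lanes in the upper range. The mean level was 10.37 ± 1.11 log2 CPM in flaxseed, 6.32 ± 1.55 in oil, 7.36 ± 2.24 in SDG and 9.76 ± 3.64 in basal lanes, the same order as for miR-1.

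**Figure D1:**
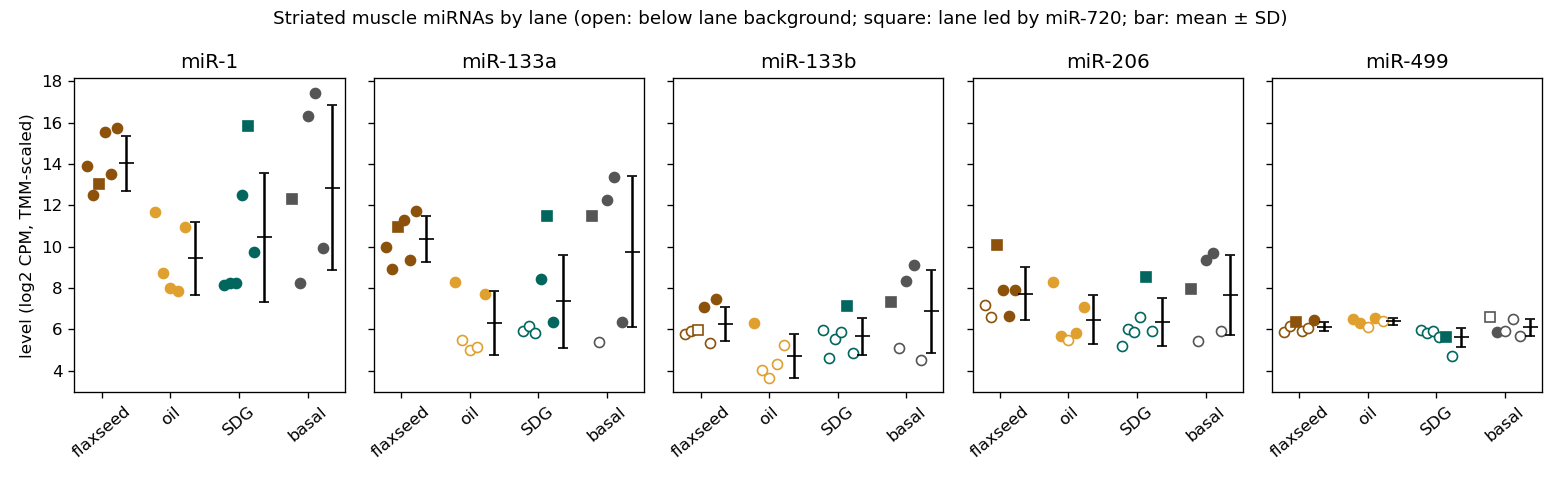
Level of the 5 miRNAs (log2 CPM) in each lane of the flaxseed, oil, SDG and basal diets. Filled points were above the background of their lane and open points below it, squares are the 3 lanes led by miR-720, and bars give the mean ± SD. miR-1 and miR-133a are higher in all 6 flaxseed lanes than in all 5 oil lanes, and SDG and basal lanes cover both ranges.

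miR-206, the skeletal muscle relative of miR-1, was above background in 12 of 22 lanes: 4 of 6 flaxseed, 4 of 5 oil, 1 of 6 SDG and 3 of 5 basal lanes. Flaxseed lanes had a lowest count of 37, a median of 90.5 and a highest of 249. Oil lanes had 166, 40, 28, 40 and 59 counts in replicates 1, 2, 3, 4 and 6, so the diets overlapped. SDG lanes had a lowest count of 11, a median of 24 and a highest of 148. Basal lanes had 37, 17, 269, 452 and 50 counts in replicates 1, 2, 3, 4 and 6. The mean level was 7.73 ± 1.30 log2 CPM in flaxseed, 6.46 ± 1.19 in oil, 6.36 ± 1.15 in SDG and 7.68 ± 1.94 in basal lanes. The order was flaxseed, basal, oil and SDG. Exact permutation tests did not separate neighbours, with unadjusted p = 0.959 for flaxseed against basal, 0.294 for oil against basal and 0.881 for oil against SDG.

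miR-133b, which shares a locus with miR-206, was above background in 7 of 22 lanes: 2 of 6 flaxseed, 1 of 5 oil, 1 of 6 SDG and 3 of 5 basal lanes. Its counts ran from 14 to 74 in flaxseed, from 7 to 41 in oil, from 9 to 56 in SDG and from 13 to 297 in basal lanes. The mean level was 6.26 ± 0.83 log2 CPM in flaxseed, 4.71 ± 1.06 in oil, 5.67 ± 0.90 in SDG and 6.88 ± 2.0 in basal lanes, but most of these values were at background. The order was basal, flaxseed, SDG and oil, with unadjusted exact permutation p = 0.496 for flaxseed against basal, 0.268 for flaxseed against SDG and 0.145 for oil against SDG.

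miR-499 was at or near background in every lane. Its counts ran from 18 to 51 in flaxseed, from 37 to 67 in oil, from 9 to 24 in SDG and from 14 to 48 in basal lanes. It was above the threshold in 2 of 6 flaxseed, 3 of 5 oil, 1 of 6 SDG and 1 of 5 basal lanes and never exceeded 1.92 times the threshold of its lane. The mean level was 6.14 ± 0.23 log2 CPM in flaxseed, 6.39 ± 0.18 in oil, 5.62 ± 0.46 in SDG and 6.11 ± 0.40 in basal lanes. The order was oil, flaxseed, basal and SDG, with unadjusted exact permutation p = 0.0844 for flaxseed against oil, 0.874 for flaxseed against basal and 0.113 for SDG against basal. Its relatives miR-208a and miR-208b were above the threshold in 0 of 22 lanes, with highest counts of 25 and 13. miR-133b was above background in no more lanes than miR-499, but reached 5.19 times the threshold.

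The spread between mice on one diet was larger for miR-1 than for any other of the 254 tested probes. The within-diet SD was 2.72 log2 units for miR-1 (rank 1) and 2.28 for miR-133a (rank 2). It was 1.41 for miR-206 (rank 9), 1.25 for miR-133b (rank 12) and 0.34 for miR-499 (rank 214), beside a median of 0.53 over all tested probes. Without the 3 lanes led by miR-720, miR-1 and miR-133a kept ranks 1 and 2, and miR-206 and miR-133b had ranks 7 and 6. The SD of miR-499 was then 0.35 (rank 117) beside a median of 0.33, so its place below the median rested on those lanes. The 5 miRNAs together took 0.048% of the endogenous counts in oil 3, the lowest share, and 18.4% in basal 4, the highest.

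The 4 miRNAs other than miR-499 moved together between lanes. Over 22 lanes, which share panel and scaling, miR-1 and miR-133a had Pearson's r = 0.96 and Spearman's rho = 0.95 (permutation test, unadjusted p = 1e-05 for each, the smallest that 100000 resamples can give; 2e-05 and 2.5e-05 adjusted over the 10 pairs). Without basal 3 and basal 4, the lanes farthest from the median of miR-1, r was 0.95, and with basal 1, flaxseed 3 and SDG 5 left out it was 0.99. After centring on the mean of each diet r was 0.95 (adjusted p = 7.5e-05, permuted within diets), with r = 0.79 in flaxseed, 0.99 in oil, 0.99 in SDG and 0.94 in basal lanes.

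The pairs of miR-1 with miR-133b (r = 0.85, rho = 0.79) and with miR-206 (r = 0.84, rho = 0.85) passed the same permutation test (adjusted p of r = 2e-05 for each), and r without the 2 farthest lanes was 0.79 and 0.77. Both miRNAs of these pairs were above background in only 7 and 12 of the 22 lanes, so r over all lanes includes many values at background. Among flaxseed lanes alone, however, miR-206 and miR-1 had r = 0.07. miR-133a had r = 0.90 with miR-133b and with miR-206, and miR-133b had r = 0.80 with miR-206, all past the test. Both miRNAs of a pair were above background in 7, 10 and 7 lanes, in that order. Among flaxseed lanes alone miR-133b and miR-206 had r = 0.26. Where both were above background, miR-133a per miR-133b count had a median of 18.3, from 4.05 in oil 1 to 20.9 in SDG 5. Whether probes for related miRNAs also count each other's miRNA was not tested. The 4 pairs that involve miR-499 had r between 0.12 and 0.31, with adjusted permutation p between 0.226 and 0.603, and rho between -0.00056 and 0.23.

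**Figure D2:**
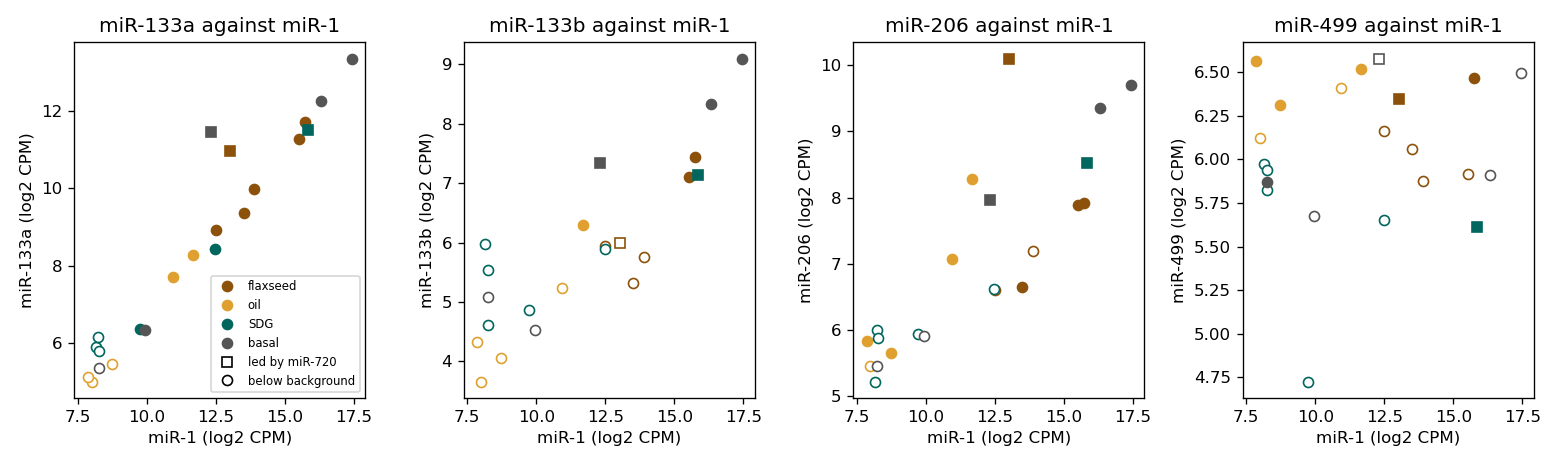
Level (log2 CPM) of miR-133a, miR-133b, miR-206 and miR-499 against that of miR-1, 1 point per lane, coloured by diet, with squares for the 3 lanes led by miR-720 and open points where the miRNA on the vertical axis was below the background of its lane. miR-133a follows miR-1 closely (r = 0.96), flaxseed 3 lies high for miR-206, and miR-499 stays level.

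The ratio of miR-1 to miR-133a was compared between lanes only, since probes can differ in efficiency. In the 15 lanes where both were above background, miR-1 had a median of 14.9 counts per miR-133a count. The 3 lanes led by miR-720 held both ends of the range, with 4.199 in flaxseed 3, 20.5 in SDG 5 and 1.80 in basal 1. The other 12 lanes lay between 9.43 and 19.03. In the 7 lanes where miR-133a was below background the ratio has no firm value.

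**Figure D3:**
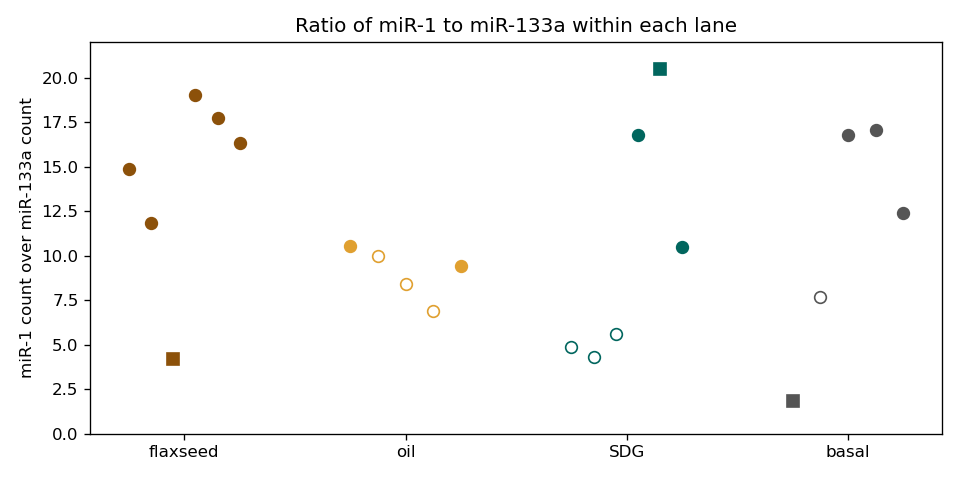
miR-1 count over miR-133a count in each lane, by diet. Open points are lanes where miR-133a was below background and squares the 3 lanes led by miR-720, of which flaxseed 3 and basal 1 lie below the other filled points and SDG 5 above them.

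miR-206 did not keep a fixed ratio to the others. In flaxseed 3 it had 249 counts, 14.2 times the threshold, and miR-133b, from the same locus, had 14 counts, below the threshold. Flaxseed 3 is led by miR-720 and also had the lowest housekeeping mRNA counts of all lanes. In oil 1 miR-206 and miR-133a both had 166 counts, with 41 counts of miR-133b. In oil 2 and oil 4 miR-206 had 40 counts and was above background, while miR-133a, with 35 and 24 counts, was not. The thresholds of these lanes were 39.6 and 34.8 counts, so all of these values were near background. Over the 12 lanes with both above background, miR-1 per miR-206 count had a median of 69.0 and ranged from 4.15 in oil 4 to 229 in flaxseed 6. That range was far wider than for miR-133a, but oil 2 and oil 4 were not among the lanes used for miR-133a.

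To compare the diets, all 22 lanes were fitted together with edgeR's quasi-likelihood test, adjusted by the Benjamini-Hochberg method over the 254 tested probes, and 5 of 5 striated muscle miRNAs passed the filter on low counts. That filter asked for a count above background in at least 5 lanes of any diet. Lane numbers restart between flaxseed and oil, so basal and flaxseed lanes may form a different set from oil and SDG lanes. Comparisons across these sets cannot tell diet from set. edgeR called 0 of 254 probes (0%) at an adjusted p under 0.05 in each of the 6 comparisons and in the test for any diet, so none of the 5 was called. In the test for any diet 4 of 5 had an unadjusted p under 0.05, beside 14.2% of all tested probes, with adjusted p between 0.213 and 0.446 for the 5.

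In flaxseed against oil, miR-1 and miR-133a had higher levels in every flaxseed lane than in any oil lane. The edgeR log2 fold change was 4.28 ± 1.64 for miR-1 (SE, adjusted p = 0.127, 95% interval 0.87 to 7.69) and 3.75 ± 1.32 for miR-133a (adjusted p = 0.10, interval 1.02 to 6.48). It was 1.504 ± 0.73 for miR-133b, 1.42 ± 0.83 for miR-206 and -0.25 ± 0.22 for miR-499 (adjusted p between 0.212 and 0.509). By unadjusted p under 0.05, 2 of 5 were counted, beside 23.6% of all tested probes. All 6 flaxseed lanes were above all 5 oil lanes for 2 of 5, miR-1 and miR-133a, beside 2.36% of tested probes. Lanes did not overlap in either direction for 3.94%. For miR-1 and miR-133a the exact two-sided permutation test gave unadjusted p = 0.00216, the smallest that 462 splits can give, and adjusted p = 0.110. DESeq2 called 30 of 254 probes (11.8%), among them miR-1 (adjusted p = 0.0190) and miR-133a (adjusted p = 0.0184), while limma-voom called 0. Without flaxseed 3, the edgeR value of miR-206 was 0.47. In the same comparison 3 of 3 lymphocyte miRNAs (miR-150, miR-142-3p and miR-342-3p) were below 0 (median -1.99) and 8 of 9 tested epithelial miRNAs were below 0 (median -0.28), with 0 past the adjusted threshold in either list, and their part in the result was not tested.

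In oil against basal, miR-1, miR-133a and miR-133b had their lowest fold changes of the 6 comparisons. The edgeR log2 fold change was -5.44 ± 1.76 for miR-1 (adjusted p = 0.201), -4.89 ± 1.41 for miR-133a (adjusted p = 0.194) and -2.83 ± 0.76 for miR-133b (adjusted p = 0.194). It was -1.66 ± 0.86 for miR-206 and 0.27 ± 0.24 for miR-499. By unadjusted p under 0.05, 3 of 5 were counted, beside 16.1% of tested probes. The lanes overlapped for all 5, with miR-1 and miR-133a of basal 2 and basal 6 within or below the range of the oil lanes, and the exact permutation test gave unadjusted p = 0.135 for miR-1 and 0.103 for miR-133a. DESeq2 called 6 of 254 probes (2.36%), among them miR-1, miR-133a and miR-133b (adjusted p between 0.00374 and 0.00467), while limma-voom called 0. The same lymphocyte miRNAs had fold changes in the other direction. Their summed level was 8597 to 32647 CPM in flaxseed, 7498 to 115362 CPM in oil, 8402 to 109422 CPM in SDG and 6786 to 9555 CPM in basal lanes. All 3 had a log2 fold change above 0 in oil against basal (median 2.57) and in SDG against basal (median 2.10) and below 0 in flaxseed against SDG (median -1.31). None passed the adjusted threshold, and their part in these results was not tested.

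SDG against basal gave edgeR log2 fold changes of -2.26 ± 1.43 for miR-1, -2.65 ± 1.18 for miR-133a, -1.89 ± 0.69 for miR-133b, -1.70 ± 0.82 for miR-206 and -0.47 ± 0.23 for miR-499, with adjusted p between 0.785 and 0.839. All 5 were below 0, and 3 of 5 had an unadjusted p under 0.05, beside 5.12% of tested probes. DESeq2 and limma-voom called 0. The size of the miR-1 value depended on single lanes, being -5.21 without SDG 5 and -0.99 without basal 4. With 1 lane left out at a time, miR-133a ranged from -4.95 to -1.74 and miR-206 from -2.57 to -1.14. In the same way miR-133b ranged from -2.38 to -1.16 and miR-499 from -0.58 to -0.33, so all 5 stayed below 0.

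Flaxseed against basal gave edgeR log2 fold changes of -1.16 ± 1.39 for miR-1 (95% interval -4.06 to 1.73), -1.14 ± 1.14 for miR-133a, -1.32 ± 0.68 for miR-133b, -0.23 ± 0.80 for miR-206 and 0.02 ± 0.23 for miR-499, with adjusted p between 0.554 and 0.975. Of these, 0 of 5 had an unadjusted p under 0.05, beside 8.66% of tested probes, and DESeq2 and limma-voom called 0. The sign was not settled. edgeR compares mean scaled counts, which basal 4 and basal 3 dominate, whereas the difference of mean log2 CPM was 1.17 for miR-1 and 0.61 for miR-133a, with exact permutation p of 0.506 and 0.688, unadjusted. Without basal 4 the edgeR value of miR-1 was 0.11.

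Flaxseed against SDG gave edgeR log2 fold changes of 1.10 ± 1.34 for miR-1, 1.51 ± 1.11 for miR-133a, 0.56 ± 0.67 for miR-133b, 1.47 ± 0.79 for miR-206 and 0.49 ± 0.22 for miR-499, with adjusted p between 0.806 and 0.962. By unadjusted p under 0.05, 1 of 5 was counted, miR-499, beside 5.12% of tested probes, and DESeq2 and limma-voom called 0. Without SDG 5 the value was 3.99 for miR-1 and 3.74 for miR-133a. On the log scale with all lanes kept, the difference of mean log2 CPM was 3.58 for miR-1 and 3.01 for miR-133a (exact permutation test, unadjusted p = 0.0346 and 0.0216, adjusted p = 0.977 and 0.756). For miR-1, limma-voom gave 3.61, and the value was 3.85 in the deposited log2 table. Oil against SDG gave -3.18 ± 1.56 for miR-1, -2.24 ± 1.23 for miR-133a, -0.94 ± 0.73 for miR-133b and 0.04 ± 0.82 for miR-206, with adjusted p between 0.614 and 0.996. Without SDG 5 these were -0.29 for miR-1 and -0.00031 for miR-133a, and the difference of mean log2 CPM over all lanes was -1.01 and -1.04, with -0.96 for miR-1 in limma-voom.

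In oil against SDG, miR-499 had the smallest p of the 254 probes, with a log2 fold change of 0.74 ± 0.23 and an adjusted p of 0.450 in edgeR. By unadjusted p under 0.05, 1 of 5 was counted, beside 7.48% of tested probes, and DESeq2 and limma-voom called 0. All 5 oil lanes were above all 6 SDG lanes in scaled level, beside 1.97% of tested probes without overlap, but only 3 oil lanes and 1 SDG lane were above background, and the background threshold itself was 34.8 to 48.3 counts in oil and 17.8 to 46.7 counts in SDG lanes.

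The 3 lanes led by miR-720 bore on several of these values. Without them, edgeR gave miR-1 a log2 fold change of 4.39 ± 1.41 in flaxseed against oil (adjusted p = 0.0521), 4.21 ± 1.40 in flaxseed against SDG (adjusted p = 0.553), -5.73 ± 1.53 in oil against basal (adjusted p = 0.0631) and -5.55 ± 1.52 in SDG against basal (adjusted p = 0.209). miR-133a gave 3.63 ± 1.15, 3.69 ± 1.17, -4.97 ± 1.24 and -5.03 ± 1.25 in the same 4 comparisons, and miR-206 gave 0.42 ± 0.69, 1.32 ± 0.73, -1.78 ± 0.72 and -2.67 ± 0.76. For miR-1 and miR-133a the comparisons with SDG thus moved furthest, SDG 5 being 1 of the 3 lanes. In flaxseed against basal miR-1 was at -1.34 ± 1.30 and miR-206 at -1.36 ± 0.71 without them. In oil against SDG miR-1 was at -0.18 ± 1.24 and miR-206 at 0.90 ± 0.74. None of the 5 miRNAs was called by edgeR in any of the 6 comparisons.

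**Figure D4:**
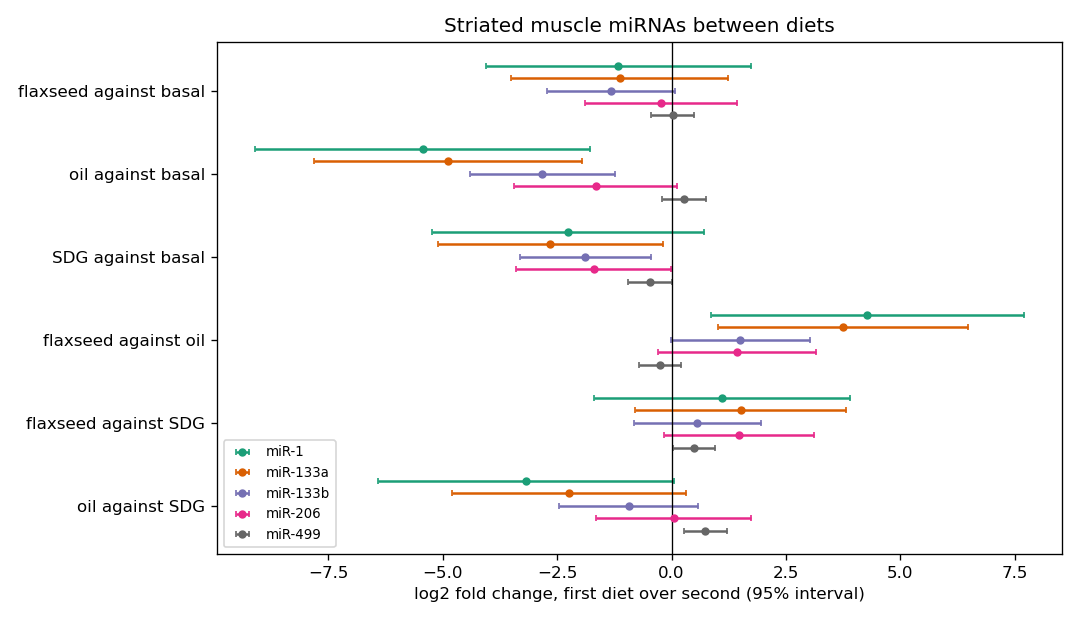
Log2 fold change of the 5 miRNAs, first diet over second, in the 6 comparisons, with 95% intervals from the edgeR fit. Intervals of miR-1 and miR-133a are several log2 units wide, those of miR-499 are narrow, and none of the 5 passed an adjusted p under 0.05.

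Among the other 253 tested probes, the likeness of each to miR-1 was measured by Spearman's rho of log2 CPM over 22 lanes and is given as a description. The middle of the distribution lay between -0.26 and 0.27 (quartiles). miR-133a had rank 1, miR-206 rank 2 and miR-133b rank 4, and 7 probes had rho over 0.7. The probes outside the set with the highest rho were miR-378 (0.79), miR-410 (0.74), miR-486 (0.73), miR-1931 (0.71) and miR-204 (0.69). miR-378, hosted in a gene of mitochondrial metabolism, Ppargc1b, and found in muscle and fat, averaged 12.54 ± 0.82 log2 CPM in flaxseed, 11.73 ± 0.32 in oil, 12.03 ± 0.30 in SDG and 12.28 ± 0.41 in basal lanes. miR-486, found in muscle and in red cells, averaged 9.53 ± 0.67 log2 CPM in flaxseed, 8.88 ± 0.62 in oil, 8.70 ± 0.56 in SDG and 9.85 ± 0.82 in basal lanes. miR-410 averaged 7.63 ± 0.57 log2 CPM in flaxseed, 6.75 ± 0.40 in oil, 7.23 ± 0.47 in SDG and 7.64 ± 0.46 in basal lanes. miR-378, miR-410 and miR-486 also headed the probes outside the set for miR-133a (rho 0.84, 0.75 and 0.77), miR-133b (0.72, 0.63 and 0.71) and miR-206 (0.71, 0.63 and 0.75). Without the miR-720 lanes these rho were lower for miR-206 (0.59, 0.48 and 0.69), miR-133b (0.64, 0.53 and 0.61) and miR-133a (0.80, 0.68 and 0.68). For miR-1 they were then 0.81, 0.75 and 0.75. For miR-499 the leading probes were others, led by miR-423-5p (0.64), miR-1906 (0.57) and a mouse cytomegalovirus probe, mcmv-miR-M23-2 (0.56). The red cell miRNAs miR-451 and miR-144 had rho of 0.31 and 0.03 with miR-1, and the 2 smooth muscle miRNAs, miR-143 and miR-145, had rho of 0.27 and 0.20.

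**Figure D5:**
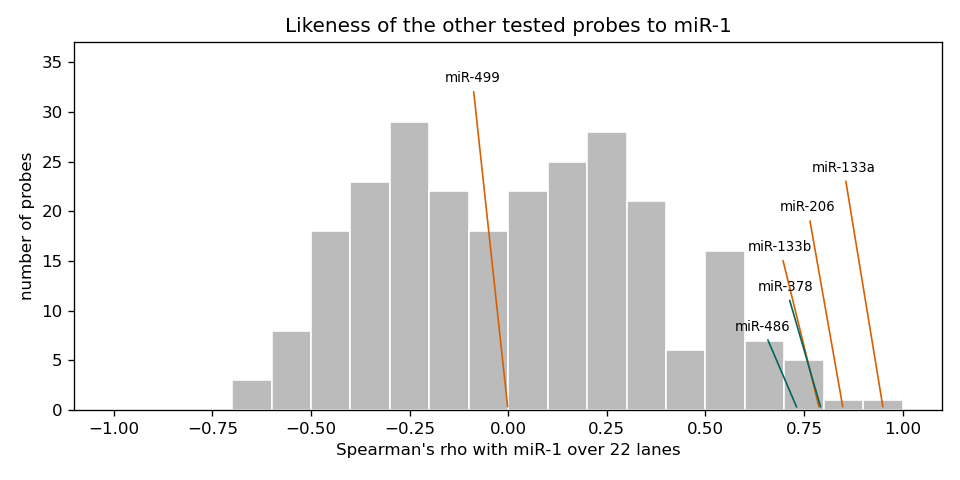
Number of tested probes by Spearman's rho with miR-1 over 22 lanes, with lines from each name to its value. miR-133a, miR-206 and miR-133b lie at the right edge beside miR-378 and miR-486, and miR-499 lies near 0. miR-410, miR-1931 and miR-204 also lie toward the right edge and are not labelled.

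Of 22 other muscle-linked miRNAs on the panel, among them miR-378, miR-486, miR-208a and the miR-29 family, 20 were tested and 0 passed the edgeR threshold in any comparison. Their log2 fold changes were above 0 for 13 and below 0 for 7 in flaxseed against oil (median 0.19, beside 0.08 over all tested probes). They were above 0 for 14 and below 0 for 6 in oil against basal (median 0.06, beside -0.03). Their Spearman's rho with miR-1 was above 0 for 12 of 20, with a median of 0.14 and a range from -0.63 to 0.79. As a list they therefore did not follow miR-1. Most of them are also made by many other cells, and they did not share the range seen for miR-1 and miR-133a.

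The promoters of Mir1a-1hg, the host transcript named for miR-1a-1 (chr2:180385354-180385653, plus strand), and of Myh7b, the host of miR-499 (chr2:155610993-155611292, plus strand), are given from RefSeq (GRCm38.p6) because their miRNAs differed most in spread between lanes. The small spread of miR-499 is that of counts at or near background. Whether promoter sequence bears on spread was not tested. Each window runs from 250 bases before to 50 bases after the start, and capitals mark the motif matches found.

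Mir1a-1hg: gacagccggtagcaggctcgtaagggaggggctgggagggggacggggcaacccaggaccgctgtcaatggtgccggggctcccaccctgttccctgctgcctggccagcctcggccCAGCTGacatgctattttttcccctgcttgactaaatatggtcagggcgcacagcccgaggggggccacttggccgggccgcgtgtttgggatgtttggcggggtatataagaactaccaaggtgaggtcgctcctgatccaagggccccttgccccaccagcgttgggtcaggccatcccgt
Myh7b: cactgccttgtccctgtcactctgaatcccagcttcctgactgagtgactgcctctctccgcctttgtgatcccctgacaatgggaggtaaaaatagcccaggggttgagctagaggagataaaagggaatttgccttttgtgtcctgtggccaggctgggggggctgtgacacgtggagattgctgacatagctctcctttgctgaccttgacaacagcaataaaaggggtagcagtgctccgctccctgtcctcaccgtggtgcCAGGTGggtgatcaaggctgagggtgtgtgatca

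The motifs searched on both strands were CAGCTG and CACCTG, E-boxes of the kind bound by myogenic factors, and the MEF2 core, a motif of muscle genes (CTA and TAG with 4 bases of any kind between them); they were chosen after the sequences had been seen and do not overlap in these windows. Mir1a-1hg had 1 match of CAGCTG, which 16.3% of 32851 promoters of the same length hold. Myh7b had 1 match of CACCTG, on the minus strand, which 20.2% hold. The MEF2 core, held by 3.69%, had 0 matches in either window.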

How the data were processed

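miRNAs were measured in total RNA of single mammary glands, 1 nCounter lane per mouse. Per the file headers, each deposited lane file lists unscaled counts for every probe. A second deposited table holds the authors' log2 values, with a scaling and background rule not given in the sources used here; it served as an alternative, for 4 of the 5 miRNAs. The miRNAs and the marker lists were chosen with earlier results of these data known. Probes named for likeness are among the 5 most like each of the 5 miRNAs by Spearman's rho, and not all of those are named. Other named probes come from the marker and muscle-linked lists, apart from miR-720.

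Endogenous probes above the mean + 2 SD of the negative controls in at least 5 of 22 lanes were tested (254, 1 of them viral). edgeR 4.0.16 (R 4.3.3) was run with TMM scaling and diet as the only factor over all lanes, with Benjamini-Hochberg adjustment in each comparison, and checked on simulated data. The simulated probes all had the same dispersion and their scaling was given, not estimated. That check therefore did not cover TMM scaling or the wide spread of miR-1 and miR-133a. The SE was obtained by dividing the absolute log2 fold change by the root of F. limma 3.58.1 (voom), DESeq2 1.42.0, exact permutation tests, other scalings and filters, subtraction of negative controls, fits of only the diets compared, a replicate block, the deposited log2 table and leaving out lanes were alternatives. Replicates are separate mice. Depth was 260551 to 762146 endogenous counts per lane. The lane headers used here give no cartridge or run.

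Replicate numbers were checked for pairing by the correlation of deviations from diet means between lanes of the same number. In no comparison did every pair exceed 0.1, so the numbers were not treated as pairs.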

Additional observations from a re-analysis of the deposited data

Results flagged for a closer look

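miR-499 in SDG 6 was the lowest of the 6 SDG lanes, at 4.72 log2 CPM, and the nearest lane was at 5.61, a gap of 0.711 of the whole range. This sample lay apart from the others of its diet by Dixon's criterion. The value is 9 counts, below the background of its lane. Of 20 combinations of miRNA and diet examined, 1 was picked out in this way, which is about the share of 1 in 20 that chance gives.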

How the results depend on the processing

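Of the log2 fold changes of the 5 miRNAs under the alternatives other than leaving out 1 lane, 404 kept their direction and side of the threshold, 22 turned direction and 6 passed the threshold; the cause was not tested. The turns were mostly in flaxseed against basal. There limma-voom put miR-1 at 1.21, miR-133a at 0.55 and miR-206 at 0.0047, the difference of mean log2 CPM gave 1.17, 0.61 and 0.050 in that order, and the deposited log2 table gave 1.26, 1.06 and 0.19. miR-499 was -0.011 with DESeq2 size factors, -0.12 with total counts without these miRNAs and miR-720, -0.036 with no filter, -0.11 with negative controls subtracted and -0.040 with only both diets fitted. The housekeeping mRNAs had a geometric mean of 135 counts in flaxseed 3, against 1070 to 4407 counts in the other lanes. Housekeeping mRNA scaling, which moved the median of all probes by 1.35, gave 0.68 for miR-133a, 2.54 for miR-206 and 67 calls. It gave 0.75 for miR-499 in flaxseed against oil and -0.60 for miR-206 in oil against SDG, where limma-voom gave -0.055 and no filter -0.028 for miR-206.

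DESeq2 made 6 calls in oil against basal (miR-1 -5.46, miR-133a -4.88, miR-133b -2.81) and 30 in flaxseed against oil (miR-1 4.25, miR-133a 3.69). Positive control scaling, which moved the median by -0.35 and 0.79, made 5 calls in flaxseed against oil and 17 in oil against SDG, miR-499 among them at 1.53 (adjusted p = 0.0159 in edgeR). The strict filter made 6 calls in flaxseed against oil, and no filter made 1 in oil against basal. Without the 3 lanes led by miR-720 there was 1 call in oil against basal, 18 in flaxseed against oil and 1 in oil against SDG, where miR-133a was 0.056. Total count scaling gave miR-499 an r of -0.066 with miR-1, -0.14 with miR-133a and -0.043 with miR-206, and log2 of counts over background gave -0.0013 with miR-1.

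Leaving out 1 lane at a time gave 0 to 7 calls in flaxseed against oil (7 without flaxseed 6). The log2 fold change of flaxseed against basal ranged from -1.60 to 0.11 for miR-1, -1.18 to 0.33 for miR-206 and -0.088 to 0.15 for miR-499, and that of oil against SDG from -0.72 to 0.87 for miR-206.

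With replicate number as a block, miR-1 was 0.50 in oil against SDG and no other sign turned; 0 probes were called in every comparison. The numbers did not pair the lanes, with correlations from -0.62 to 0.53, and the SDG numbers are in doubt. In flaxseed against SDG the block gave miR-1 4.09. A block for cartridge or scan run was not run. At 5 or 6 lanes a diet, and with miR-133b, miR-206 and miR-499 at background in many lanes, differences among the low lanes may have been missed. The smallest difference that could be detected was not tested.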
